A study of Mus musculus with 8 samples.

Results

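The genes described here encode matricellular and adhesion proteins of the extracellular matrix, namely Thbs1, Thbs2, Postn, Tnc, Sparc, Fn1, Spp1, Fbn1, Eln and Vcan. They were chosen by name, with earlier results of these data known. Each was read from the probe set annotated with its symbol alone, taking the one with the highest mean over all arrays where there were several. Of the 10 named genes, 8 had such a probe set, 1 each, among 19938 genes measured on the array. Spp1, which encodes osteopontin, and Fbn1, which encodes fibrillin 1, were not analysed here.

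The RNA came from 3134 cells, a mouse mammary line derived by transformation of C127, which was isolated from a mammary tumour of the RIII strain. All 4 groups carried stably integrated A-fos, a dominant negative protein that keeps the transcription factor AP-1 off DNA, and the tetracycline regulator tTa that drives it in the Tet-Off manner. The groups were 4 h of 100 nM dexamethasone and 0 h without hormone in the arm titled plus tetracycline, and the same 2 states in the arm titled no tetracycline, with 2 arrays each. No group was held for 4 h without hormone. Hormone and the 4 h of time therefore cannot be told apart in the responses below. Dexamethasone is a synthetic glucocorticoid, and the series asked what AP-1 does for the action of its receptor. The treatment protocols state the opposite tetracycline state (1 ug per ml) from the titles for all 8 samples. The arms are therefore called plus-titled and no-titled, and no statement is made on which of them expressed A-fos. All cells had spent 48 h in charcoal-treated serum. The labels do not state whether replicates came from separate cultures, nor whether the line is a single clone. The p-values therefore reflect the spread between these samples alone, which may be technical.

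Matricellular proteins are secreted into the matrix but act on cells more than they build structure. Thrombospondins, tenascin C, periostin, SPARC and osteopontin bind integrins, syndecans or other cell surface receptors, growth factors and collagen, and their genes are typically active in development, wound repair and tumour stroma. Fibronectin and the large proteoglycan versican form provisional matrix on which cells attach and move, while elastin and fibrillin 1 build elastic fibres. In the mammary gland such proteins come mainly from stromal and myoepithelial cells.

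Values are log2 expression after the authors' robust multi-array average (RMA), so that 1 unit is a 2-fold difference. Array medians lay between 5.36 and 5.47, and the replicates of a group correlated across genes at 0.9932 to 0.9956. With dexamethasone the receptor target genes Fkbp5, Tsc22d3, Per1 and Sgk1 were higher in both arms. The rise was 1.82 to 3.38 in the plus-titled and up to 3.05 in the no-titled arm. No probe set is known here to read the A-fos transgene. The labelled tissue was checked against 12 epithelial and 12 mesenchymal marker genes. The dimmest 30% of genes lay under a level of 4.61. Of the epithelial markers, 8 were above it in every array, among them Cdh1 at 4.83 to 5.19, Krt8 at 5.56 to 6.06 and Cldn3 at 5.95 to 6.46. Another 2, Epcam at 4.06 to 4.58 and Esrp1 at 4.07 to 4.38, were below it in every array, and Krt19 and Ovol1 crossed it. Of the mesenchymal markers, 10 were above it in every array, among them Vim at 12.61 to 12.99, Cdh2 at 8.80 to 9.22 and Col1a2 at 11.34 to 12.17. Another 2, Dcn and Lum, were below it in every array. Markers of other cell types were also above it in every array, 3 of 7 leukocyte, 3 of 6 endothelial and 2 of 4 pituitary corticotroph genes. A value above this level therefore does not by itself show that a marker is expressed.

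Among the 8 matrix genes, a small subset differed with dexamethasone or between the arms. Thbs1 fell and Postn rose with hormone in both arms. Thbs1 was higher, and Postn and Vcan were lower, in the plus-titled arm at both times. Sparc, Fn1, Eln, Thbs2 and Tnc passed no test in the main model. Fn1, Sparc and Thbs2 each passed under at least 1 alternative setting given below. Differences were tested with limma in a single model over all 8 arrays, with p-values adjusted over all 19938 genes by the Benjamini-Hochberg method, with calls made below an adjusted p of 0.05. All adjusted p-values below are from this limma model. Over all genes, 13.9% were called in at least 1 of the 5 comparisons made.

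The promoters of Postn and Vcan are shown because these genes differed between the arms and are the called members with an entry in the RefSeq promoter table (build GRCm38.p6), which held 7 of the 10 named genes. Each run is the 250 bases before an annotated start, 5′ to 3′ on the gene's strand. The Postn window is chr3:54360857-54361106 on the plus strand, the nearer to the coding region of its 2 annotated starts. The Vcan window is chr13:89742513-89742762 on the minus strand. Capitals mark a TATA box (TATAAA, read on the gene's strand).
Postn: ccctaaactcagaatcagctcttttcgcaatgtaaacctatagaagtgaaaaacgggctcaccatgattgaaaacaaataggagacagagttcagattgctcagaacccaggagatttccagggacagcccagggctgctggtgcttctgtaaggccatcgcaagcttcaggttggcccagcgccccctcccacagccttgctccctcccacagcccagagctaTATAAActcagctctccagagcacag
Vcan: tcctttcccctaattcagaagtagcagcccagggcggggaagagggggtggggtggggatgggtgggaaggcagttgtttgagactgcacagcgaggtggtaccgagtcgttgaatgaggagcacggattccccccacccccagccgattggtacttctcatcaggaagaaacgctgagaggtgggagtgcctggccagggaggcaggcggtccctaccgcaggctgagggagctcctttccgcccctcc

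Neither window held the AP-1 letters TGANTCA or the glucocorticoid receptor half-site letters AGAACA on either strand. In all 32851 promoter windows of the same length, 6.75% held TGANTCA and 16.1% held AGAACA. The TATA box of Postn spanned bases -26 to -21 from the start, and TATAAA was present in 7.59% of all windows. The Sparc window held AGAACA letters at 2 places, bases -78 to -73 on the opposite strand and -14 to -9 on the gene's strand. These are letter matches, not binding sites.

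**Figure D1:**
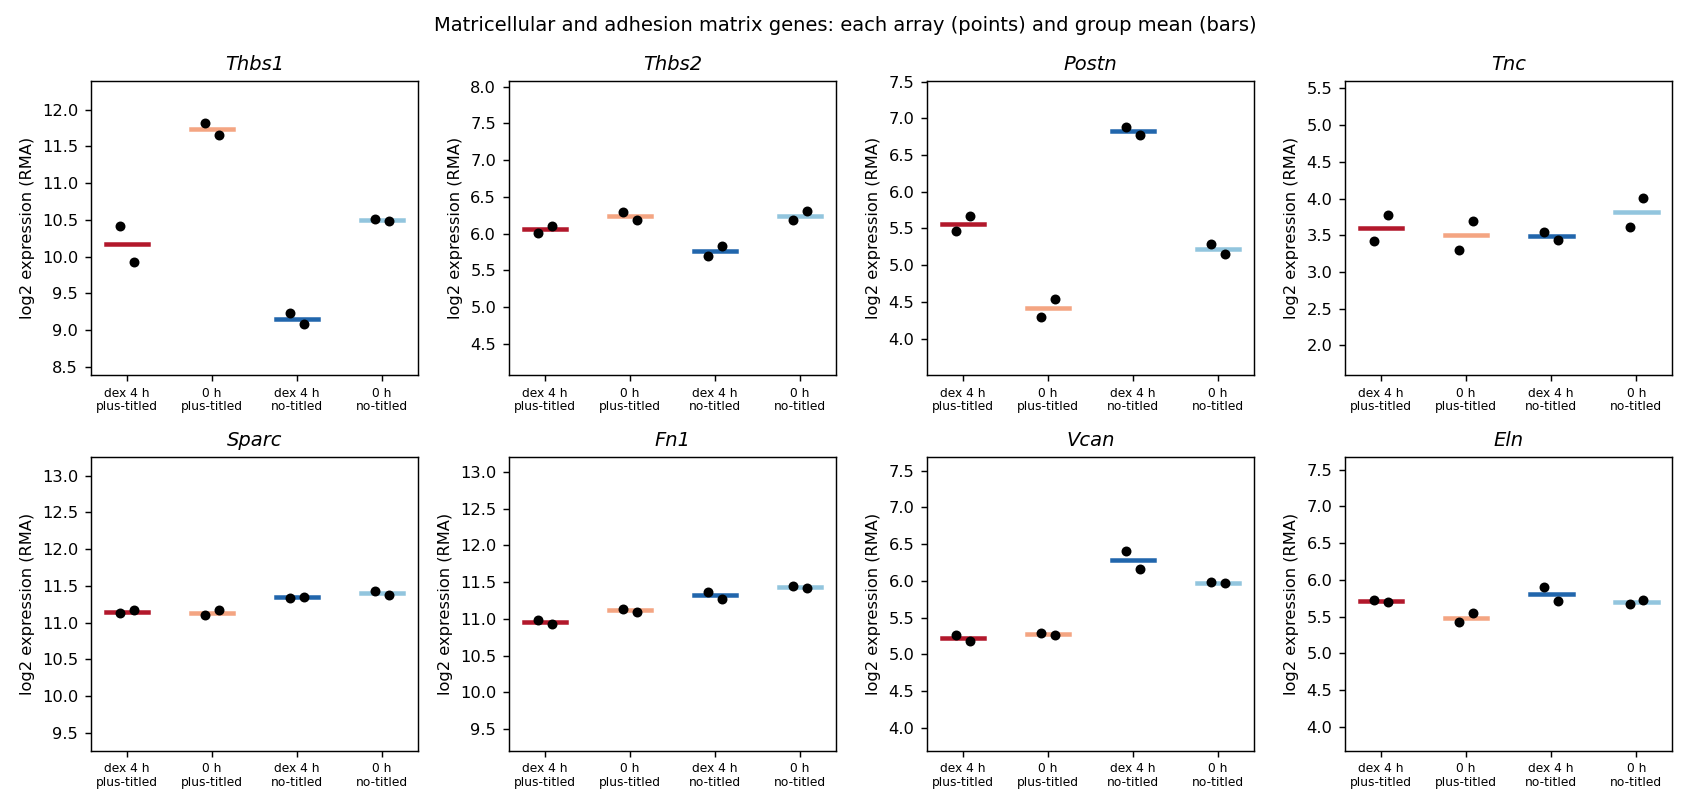
Log2 expression (RMA, vertical axes, each spanning the same number of log2 units) of the 8 matrix genes in each group (horizontal axes); points are single arrays and bars are group means of 2 arrays. Thbs1 and Postn move in opposite directions with hormone and between the arms, Vcan separates the arms, and Sparc varies by only 0.32 over all 8 arrays.

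Thrombospondin 1, encoded by Thbs1, is a trimeric glycoprotein that activates latent TGF-beta and inhibits angiogenesis through CD36. In the plus-titled arm its level was 10.42 and 9.92 in the treated arrays, against 11.81 and 11.65 in the untreated arrays. In the no-titled arm it was 9.23 and 9.08 in the treated arrays, against 10.51 and 10.49 in the untreated arrays. Treated arrays lay below untreated arrays without overlap in both arms. This was seen in 19.3% of all genes in the plus-titled and 19.4% in the no-titled arm. The gap of 0.49 between the treated plus-titled arrays was the widest within any group of the 8 genes. With dexamethasone Thbs1 was lower by 2.95-fold in the plus-titled arm (log2 -1.56 ± 0.15, SE, adjusted p = 0.000453). The no-titled arm gave a 2.54-fold lower level (log2 -1.34 ± 0.15, adjusted p = 0.000948). The difference of the responses, -0.22 with a 95% interval of -0.70 to 0.26, did not pass (adjusted p = 0.997).

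The arms also differed in Thbs1 in both hormone states. The plus-titled arm was higher by 1.01 ± 0.15 with dexamethasone (2.02-fold, adjusted p = 0.00289) and by 1.23 ± 0.15 without it (2.35-fold, adjusted p = 0.00115). The order of group means was untreated plus-titled, untreated no-titled, treated plus-titled and treated no-titled. The middle pair differed by 0.33, less than the 0.49 between the treated plus-titled arrays. Comparisons within an arm and between the arms use the same arrays in turn, so a hormone response and an arm difference of a gene are not independent of each other.

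Thbs2 encodes a second trimeric thrombospondin, close to thrombospondin 1 in structure. Its level was 6.01 and 6.11 in treated and 6.30 and 6.19 in untreated arrays of the plus-titled arm. In the no-titled arm it was 5.70 and 5.83 in treated and 6.18 and 6.30 in untreated arrays. Treated arrays lay below untreated arrays in both arms without overlap, a separation seen in this direction in 19.3% and 19.4% of all genes. The response was -0.19 (interval -0.43 to 0.06, adjusted p = 0.655) in the plus-titled arm and -0.48 (interval -0.73 to -0.23, adjusted p = 0.0838) in the no-titled arm, and neither passed. The no-titled value passed when the dimmest genes were left out (adjusted p = 0.0377). Between the arms Thbs2 differed by 0.29 with hormone (adjusted p = 0.15) and by 0.00 without it (adjusted p = 0.999).

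Periostin, encoded by Postn, carries fasciclin domains, binds integrins with the alpha-v subunit and takes part in collagen assembly. Its level in the plus-titled arm was 5.46 and 5.66 in treated arrays, against 4.30 and 4.53 in untreated arrays. In the no-titled arm it was 6.89 and 6.77 in treated arrays, against 5.29 and 5.15 in untreated arrays. No 2 groups overlapped, and each pair of neighbouring group means differed by more than the gap between the arrays of either group. The share of all genes separated in this way was not counted. Treated arrays above untreated arrays without overlap were seen in 16.9% of all genes in the plus-titled and 21.1% in the no-titled arm. With dexamethasone Postn was higher by 1.15 ± 0.13 in the plus-titled arm (2.21-fold, adjusted p = 0.000988). In the no-titled arm the rise was 1.61 ± 0.13 (3.05-fold, adjusted p = 6.75e-05). The responses differed by -0.46 with an interval of -0.86 to -0.07, which did not pass over all genes (unadjusted p = 0.0261, adjusted p = 0.929). Both untreated plus-titled arrays, at 4.30 and 4.53, lay below the level of 4.61 used for dim genes. RMA compresses small folds of dim genes. The plus-titled response of Postn, its arm difference without hormone and its difference of responses use this group and may be affected.

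The plus-titled arm had less Postn in both states. The difference was -1.27 ± 0.13 with dexamethasone (2.40-fold lower, adjusted p = 0.00037) and -0.80 ± 0.13 without it (1.74-fold lower, adjusted p = 0.00364). The highest mean was thus in the treated no-titled group at 6.83 and the lowest in the untreated plus-titled group at 4.42. For Thbs1 these 2 groups held the lowest mean, 9.16, and the highest, 11.7, in the reverse order.

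Beside the Postn rise, the adipocyte marker Fabp4 rose in the no-titled arm by 1.68 (adjusted p = 0.000232), the only 1 of 6 measured adipocyte markers called there, and 0 of 6 were called in the plus-titled arm. At 4 h Fabp4 was also lower in the plus-titled arm, at -1.35 (adjusted p = 0.000772). The log2 of the summed level of these markers was 7.57 to 7.70 in treated and 7.27 to 7.45 in untreated arrays of the no-titled arm. That sum includes Fabp4 itself. Of the 6 markers, 2 were above the level of 4.61 in every array, Plin1 at 5.15 to 5.73 and Cidec at 4.941 to 5.504. Another 2 were below it in every array, Adipoq at 2.99 to 3.62 and Lep at 3.92 to 4.31, and Pparg and Fabp4 crossed it, with Fabp4 between 3.95 and 6.08. Of the 12 mesenchymal and fibroblast markers, 1 fell with hormone in the plus-titled arm, the receptor gene Pdgfrb at -0.75 (adjusted p = 0.0191), and 0 were called in the no-titled arm, where Pdgfrb was at -0.52 (adjusted p = 0.0992). Its plus-titled call was lost on leaving out treated replicate 2 (-0.60, adjusted p = 0.201) or either untreated array (-0.80 and -0.69, adjusted p = 0.0907 and 0.118). The part of these markers in the result was not tested. In RNA from bulk cultures, fewer cells of a type and less RNA per cell cannot be told apart.

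**Figure D2:**
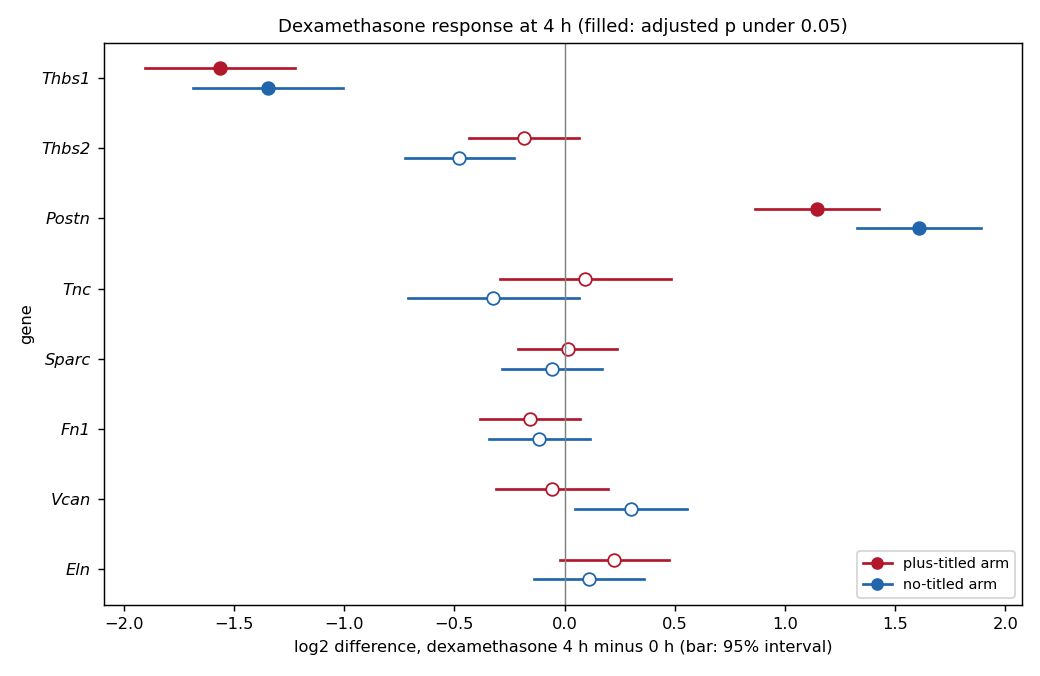
Dexamethasone response of each matrix gene (log2 difference, 4 h minus 0 h, horizontal axis) in the plus-titled and no-titled arms; points are limma estimates, bars are 95% intervals and filled points passed at an adjusted p under 0.05. Only Thbs1, below 0, and Postn, above 0, are filled, in both arms.

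With hormone, 1 of the 8 genes rose and 1 fell in each arm, and 6 did not pass. The genes were chosen with earlier results of these data known, so the shares of all genes are a description and no test. The 2 called genes of 8 stand beside 1.1% of all genes called in the plus-titled arm, with 0.823% higher calls and 0.281% lower calls, and 1.43% in the no-titled arm, with 1.03% higher calls and 0.401% lower calls. Without overlap of the arrays, 2 genes lay higher and 4 lower with hormone in the plus-titled arm, against 16.9% and 19.3% of all genes and 36.1% in either direction. In the no-titled arm 2 lay higher and 5 lower, against 21.1% and 19.4% of all genes and 40.5% in either direction. Genes called in the same direction in both arms, whose responses share no arrays, made up 0.637% of all genes. The median response of the 8 genes was -0.02 in the plus-titled arm, against -0.01 over all genes, and -0.09 in the no-titled arm, against 0.01 over all genes. Of the differences between the responses, 0 of 8 passed, and 1 had an unadjusted p under 0.05, while 0.00502% of all genes were called.

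Versican, encoded by Vcan, is a large chondroitin sulfate proteoglycan that binds hyaluronan and loosens cell attachment. Its level was 5.26 and 5.18 in treated plus-titled arrays, against 6.40 and 6.16 in treated no-titled arrays. Without hormone it was 5.29 and 5.27 in the plus-titled arm, against 5.99 and 5.96 in the no-titled arm. Each plus-titled value lay below the median of its array (5.36 to 5.45). Such a level does not by itself show that Vcan was expressed in that arm. All 4 plus-titled arrays lay below all 4 no-titled arrays. Lower plus-titled arrays without overlap were seen in 27.2% of all genes with hormone and 24.9% without it. The plus-titled arm was lower by 2.08-fold with dexamethasone (log2 -1.06 ± 0.12, SE, adjusted p = 0.000495) and by 1.62-fold without it (log2 -0.70 ± 0.12, adjusted p = 0.0045). The hormone responses of Vcan did not pass, at -0.06 (interval -0.31 to 0.20, adjusted p = 0.927) in the plus-titled arm and 0.30 (interval 0.05 to 0.56, adjusted p = 0.409) in the no-titled arm. Treated arrays lay below untreated arrays in the plus-titled arm and above them in the no-titled arm, an opposite separation found in 4.57% of all genes.

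Fibronectin, encoded by Fn1, is the adhesion glycoprotein that cells assemble into fibrils through integrin alpha-5 beta-1. With dexamethasone its level was 10.98 and 10.93 in the plus-titled arm, against 11.36 and 11.28 in the no-titled arm. Without hormone it was 11.13 and 11.10 in the plus-titled arm, against 11.45 and 11.41 in the no-titled arm. All 4 plus-titled arrays were below all 4 no-titled arrays. Within a hormone state, such a separation was seen in 27.2% of all genes with hormone and 24.9% without it. The differences of -0.36 ± 0.10 with hormone (adjusted p = 0.0543) and -0.31 ± 0.10 without it (adjusted p = 0.0874) did not pass, although each passed under some alternative settings (adjusted p as low as 0.00594 and 0.0139). The hormone responses of Fn1 were -0.16 in the plus-titled arm (interval -0.39 to 0.07, adjusted p = 0.685) and -0.11 in the no-titled arm (interval -0.34 to 0.11, adjusted p = 0.884).

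SPARC, also called osteonectin, binds collagen and modulates cell attachment. Its 8 values lay between 11.11 and 11.43, the narrowest range of the 8 genes. Treated and untreated means were 11.15 ± 0.02 and 11.14 ± 0.04 in the plus-titled arm, and 11.34 ± 0.01 and 11.40 ± 0.04 in the no-titled arm (SD, n = 2). The hormone responses of Sparc, 0.01 (interval -0.21 to 0.24) and -0.06 (interval -0.28 to 0.17), did not pass (adjusted p = 0.98 and 0.962). The arm difference was -0.19 with hormone (adjusted p = 0.311) and -0.26 without it (adjusted p = 0.149), again with no overlap between the arms. A separation in this direction was seen in 27.2% of all genes with hormone and 24.9% without it.

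Eln encodes tropoelastin, the soluble precursor of elastic fibres. Its level ranged from 5.42 to 5.90 and none of its 5 comparisons passed. The nearest to the threshold in the hormone responses was 0.23 in the plus-titled arm (interval -0.02 to 0.47, adjusted p = 0.562), and the arm difference at 0 h was -0.22 (adjusted p = 0.293).

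Tnc encodes tenascin C, a hexameric glycoprotein of embryonic and tumour stroma. Its values, from 3.31 to 4.01, averaged 3.60. It was the single member with a mean over all arrays below the level of 4.61 under which the dimmest 30% of genes lay. Arrays of 1 group differed by up to 0.39, and none of its neighbouring group means differed by more than the gap between replicates. Its response was 0.09 (interval -0.29 to 0.48, adjusted p = 0.917) in the plus-titled arm and -0.32 (interval -0.71 to 0.07, adjusted p = 0.671) in the no-titled arm. RMA compresses small folds of dim genes, so these intervals do not bound a change in the transcript itself.

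**Figure D3:**
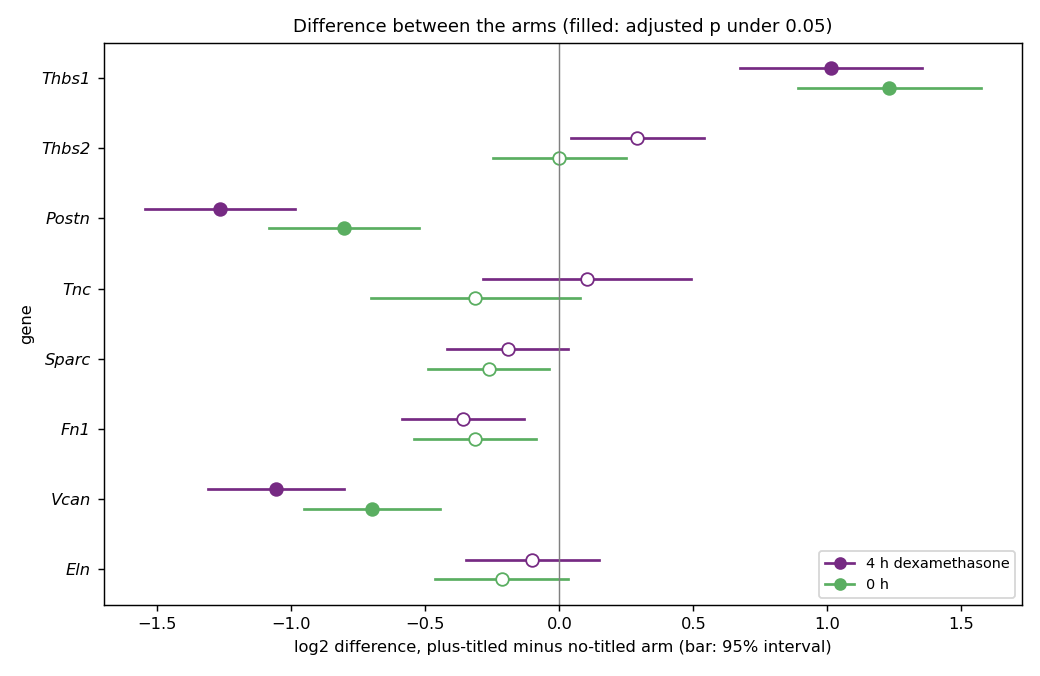
Difference between the arms for each matrix gene (log2, plus-titled minus no-titled, horizontal axis) with 4 h of dexamethasone and at 0 h; points are limma estimates, bars are 95% intervals and filled points passed at an adjusted p under 0.05. Thbs1 is above 0 and Postn and Vcan are below 0 in both states. Fn1, Sparc and Eln are also below 0 in both states, without passing.

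Between the arms, 3 of the 8 genes were called in each hormone state. In the plus-titled arm 1 was higher (Thbs1) and 2 were lower (Postn and Vcan). Here too the shares of all genes are a description and no test, given how the genes were chosen. Over all genes 9.61% were called with hormone and 9.38% without it, and 5.81% were called in the same direction in both states, which share no arrays. The lower calls, 2 of 8 genes, stand beside 4.32% of all genes with hormone and 3.18% without it, and the single higher call beside 5.29% and 6.2%. With hormone the arrays did not overlap for 6 genes, 2 higher and 4 lower, against 24.4% and 27.2% of all genes and 51.7% in either direction. The median difference of the 8 genes was -0.15 with hormone and -0.29 without it, against -0.01 and -0.02 over all genes. At 0 h, 1 gene lay higher and 5 lower without overlap, against 25% and 24.9% of all genes and 49.8% in either direction.

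Some markers of cell types also differed between the arms, where 9.61% of all genes were called with hormone and 9.38% without it. Of 12 mesenchymal and fibroblast markers, 2 were higher and 2 lower in the plus-titled arm with hormone, and 3 were higher and 2 lower without it. Pdgfra was higher by 0.59 and 0.88 (adjusted p = 0.0123 and 0.00174), while Col1a2 was lower at -0.65 and -0.70 (adjusted p = 0.00506 and 0.00364). S100a4 was also lower, at -0.86 with hormone and -1.05 without it (adjusted p = 0.00423 and 0.00164). The smooth muscle gene Acta2 was higher by 1.45 and 1.66 (adjusted p = 0.0436 and 0.0262), with values from 6.63 to 8.15 in plus-titled and from 5.62 to 5.99 in no-titled arrays. Its call was lost at 0 h without replicate 1 of the untreated plus-titled group (1.07, adjusted p = 0.175) or either untreated no-titled array (adjusted p = 0.101 and 0.118). At 4 h it did not survive leaving out treated plus-titled replicate 1 (0.83, adjusted p = 0.26), either treated no-titled array (1.63 and 1.27, adjusted p = 0.108 and 0.195) or either untreated no-titled array (adjusted p = 0.0568), and with trend and robust variance (adjusted p = 0.0567). The Pdgfra call at 4 h was lost without any 1 of the 4 treated arrays (0.54 to 0.64, adjusted p from 0.0542 to 0.0784).

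The log2 of the summed level of the mesenchymal markers was 13.51 to 13.55 in treated plus-titled arrays, against 13.89 to 13.91 in treated no-titled arrays. At 0 h it was 13.56 to 13.58 against 13.96. Levels were summed before the log, so bright markers such as Vim and Col1a2 weigh most. Vim itself was not called (adjusted p = 0.125 with and 0.084 without hormone). Of 12 epithelial markers, 1 was called, beside 9.61% of all genes with hormone and 9.38% without it. It was the basal keratin gene Krt14, lower in the plus-titled arm at -1.41 with hormone and -1.39 without it (adjusted p = 0.000771 and 0.00093). The summed epithelial level was 8.70 to 8.74 in treated plus-titled arrays, against 8.990 to 8.999 in treated no-titled arrays, and 8.63 to 8.69 against 8.96 to 9.03 at 0 h. None of 7 leukocyte, 6 endothelial or 4 pituitary corticotroph markers was called in any of the 5 comparisons. The part of these markers in the arm differences of the matrix genes was not tested.

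Other genes of the same system were read from 4 lists of matrix proteins and their receptors. These lists too were chosen with earlier results of these data known. The median hormone response of a list lay between -0.09 and 0.07, against -0.01 and 0.01 over all genes in the plus-titled and no-titled arms, and the median arm difference between -0.18 and 0.08, against -0.01 with and -0.02 without hormone over all genes. Of 23 other matricellular genes, 1 rose and 1 fell with hormone in each arm, while 1.1% of all genes were called in the plus-titled and 1.43% in the no-titled arm. Ccn2, which encodes connective tissue growth factor, rose by 1.28 ± 0.11 in the plus-titled arm (adjusted p = 0.000164) and by 0.65 ± 0.11 in the no-titled arm (adjusted p = 0.0121). Ccn4, a member of the same CCN family, fell by 0.86 ± 0.13 in the plus-titled arm (adjusted p = 0.00686) and by 1.15 ± 0.13 in the no-titled arm (adjusted p = 0.000665). Ccn2 did not pass in the no-titled arm without either treated array (0.64 and 0.66, adjusted p = 0.108 and 0.0998) or replicate 1 of the untreated group (0.56, adjusted p = 0.179). Ccn4 did not pass in the plus-titled arm without treated replicate 2 (-0.78, adjusted p = 0.0944) or replicate 1 of the untreated group (-0.81, adjusted p = 0.0763).

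Of 20 adhesion receptor genes, 1 rose with hormone in each arm and 0 fell, beside 1.1% and 1.43% of all genes called in the plus-titled and no-titled arms. Sdc4, which encodes syndecan 4, a coreceptor for fibronectin in focal adhesions, rose by 0.76 ± 0.14 in the plus-titled arm (adjusted p = 0.031) and by 0.82 ± 0.14 in the no-titled arm (adjusted p = 0.0164). The no-titled call was lost without any 1 of that arm's 4 arrays (0.77 to 0.87, adjusted p from 0.0833 to 0.166). In the plus-titled arm the gene did not pass on leaving out either treated array of that arm (0.82 and 0.71, adjusted p = 0.111 and 0.257), its untreated replicate 1 (0.55, adjusted p = 0.158) or either untreated no-titled array (0.76, adjusted p = 0.0516), or with only the arrays compared (adjusted p = 0.0703). Of 14 elastic fibre and microfibril genes and 9 hyaluronan and proteoglycan genes, 0 were called by limma in either hormone response.

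Between the arms the counts of these lists stand beside 9.61% of all genes called with hormone and 9.38% without it. Of the 23 other matricellular genes, 3 were higher and 3 lower in the plus-titled arm with hormone, and 2 were higher and 2 lower without it. Ccn2 was higher by 1.14 and 0.51 (adjusted p = 0.000284 and 0.0152) and Ccn4 by 1.10 and 0.81 (adjusted p = 0.000627 and 0.00313) with and without hormone. The galectin gene Lgals3 was lower in both states, at -0.84 and -0.93 (adjusted p = 0.00349 and 0.00232). The 0 h call of Ccn2 was lost without replicate 1 of the untreated plus-titled group (0.49, adjusted p = 0.055) or replicate 1 of the untreated no-titled group (0.42, adjusted p = 0.147). Angptl4, which encodes a secreted lipase inhibitor, was lower at -0.82 with hormone (adjusted p = 0.0127), but not on leaving out replicate 2 of the treated plus-titled arrays (-0.51, adjusted p = 0.0774) or replicate 1 of the treated no-titled group (-0.76, adjusted p = 0.0926). Lgals1, another galectin gene, was lower at -0.54 without hormone (adjusted p = 0.0103), a call lost without either untreated no-titled array (-0.57 and -0.51, adjusted p = 0.0627 and 0.0862) and with cyclic loess scaling (-0.34, adjusted p = 0.0595). With hormone Lgals1 was lower at -0.42 (adjusted p = 0.0299), a call kept on leaving out 2 of the 8 arrays in turn and lost on leaving out any of the other 6 (highest adjusted p = 0.163), with cyclic loess scaling (-0.23, adjusted p = 0.195) and with only the arrays compared (adjusted p = 0.0525). Ccn1, another CCN family gene, was higher by 0.68 with hormone (adjusted p = 0.0254), and did not pass on leaving out treated plus-titled replicate 1 (0.42, adjusted p = 0.165) or either treated no-titled array (0.80 and 0.56, adjusted p = 0.0631 and 0.161), or with only the arrays compared (adjusted p = 0.0608). Ccn1, and Lgals1 with hormone, were named after their values were seen, to complete the count.

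Of 14 elastic fibre and microfibril genes, 2 were lower in the plus-titled arm in both states and 0 were higher. Ltbp1, whose product holds latent TGF-beta in the matrix, was lower at -1.36 with hormone and -1.34 without it (adjusted p = 0.00012 and 0.000146). Fbln2, which encodes fibulin 2, was lower at -0.72 and -0.66 (adjusted p = 0.00509 and 0.00818). Its call at 4 h did not survive leaving out treated plus-titled replicate 2 (-0.66, adjusted p = 0.0505) or replicate 1 of the treated no-titled group (-0.60, adjusted p = 0.0596), and at 0 h without replicate 1 of the untreated no-titled group (-0.57, adjusted p = 0.0846). Of the 9 hyaluronan and proteoglycan genes, the hyaluronan synthase gene Has2 alone was called, lower at -0.66 without hormone (adjusted p = 0.0158). That call was lost without either untreated no-titled array (-0.71 and -0.60, adjusted p = 0.0686 and 0.11) or replicate 2 of the untreated plus-titled group (-0.44, adjusted p = 0.0679).

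Of the 20 receptor genes, 2 were higher and 1 lower in the plus-titled arm with hormone, and 2 were higher without it. Lrp1, whose product takes up thrombospondins from the cell surface, was higher by 0.52 and 0.55 (adjusted p = 0.018 and 0.0153). The integrin gene Itgb5, whose product pairs with alpha-v, was higher by 0.40 in both states (adjusted p = 0.046 and 0.0432), and Sdc1, which encodes syndecan 1, was lower at -0.45 with hormone (adjusted p = 0.0238). With hormone, Lrp1 and Sdc1 lost their calls without any 1 of the 4 treated arrays (adjusted p from 0.059 to 0.126 and from 0.0841 to 0.143). Without hormone, Lrp1 lost its call without replicate 2 of the untreated plus-titled group (0.53, adjusted p = 0.0612) or replicate 2 of the untreated no-titled group (0.45, adjusted p = 0.139). In each state, Itgb5 did not pass on leaving out any 1 of 6 arrays (highest adjusted p = 0.28 and 0.223) or with only the arrays compared (adjusted p = 0.0762 with hormone and 0.0824 without it). The genes for the CD36 and CD47 receptors of thrombospondin 1 were not called in any comparison. Cd47 lay at 8.87 to 9.42. Cd36 lay at 2.49 to 2.79, below the level of 4.61 in every array, so its lack of a call does not show an unchanged transcript.

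**Figure D4:**
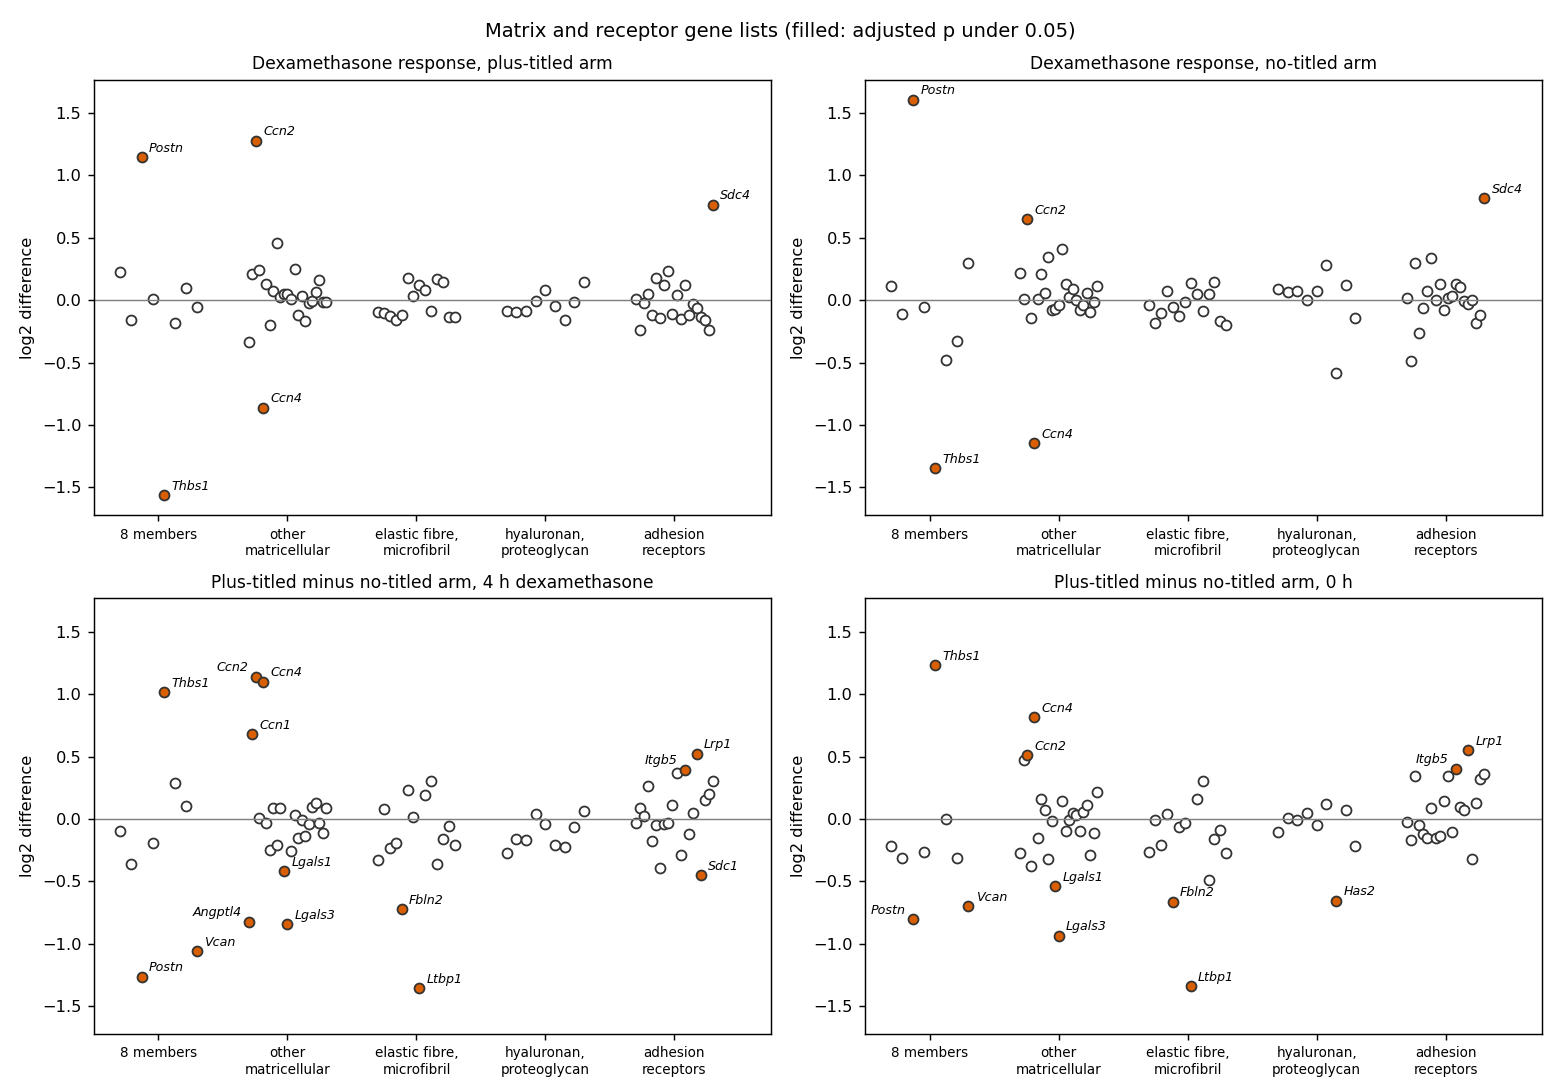
Log2 differences (vertical axes) of the 8 matrix genes and of 4 other lists of matrix and receptor genes (horizontal axes) for the hormone response in each arm (top) and the plus-titled minus no-titled difference in each hormone state (bottom). Each point is 1 gene, and filled, named points passed at an adjusted p under 0.05; most genes of each list lie near 0 and are open.

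For the 3 genes called in at least 2 comparisons, the genes with the most similar profile were taken as those with the highest Pearson correlation over the 8 arrays, which fall into 4 groups and share them. Thbs1 was followed most closely by Plekhh2 (r = 0.987), Pik3cb (r = 0.983) and Zfp414 (r = 0.983). For Postn these were Kcnc2 (r = 0.992), Vegfd (r = 0.990) and B3galnt2 (r = 0.982), and for Vcan they were Pde2a (r = 0.992), Pdcd11 (r = 0.989) and Exosc1 (r = 0.988). They are the top 3 of 19937 genes each and describe these arrays only.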

How the data were processed

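The authors deposited 1 table of log2 expression for 28888 probe sets and 8 samples. The submitters' processing notes name Affymetrix Expression Console and RMA, each in a release not given in the sources used here. Because RMA equalizes the distributions, it would hide a shift of most genes. Probe sets were named through the platform annotation, with symbols updated by gene number in a RefSeq table (GRCm38.p6, names only). The annotation gave 1 symbol to 21789 probe sets and several to 1621, while 5478 had none there. The probe set with the highest mean stood for its gene, which left 19938 genes, with no filter on signal. Groups followed the titles.

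The model (limma 3.58.1, R 4.3.3, lmFit with eBayes) had a mean per group and 4 residual and 6.64 prior degrees of freedom, and its 2-sided tests were tested on simulated data. The number of arrays limits the precision. The named genes are all members, up to 4 called genes of each other matrix or receptor list per comparison with the largest change, 4 hormone targets and the 3 most similar genes. Cell type markers are named as checks. The members and lists were chosen with earlier results of these data known. Alternatives were other variance models, samples, scalings, filters, probe set rules, a replicate block and each array left out. The same alternatives for genes of the other lists were added after seeing the data.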

Additional observations from a re-analysis of the deposited data

Results flagged for a closer look

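Vcan was singled out because its treated arrays lay on opposite sides of the untreated arrays in the arms. In the plus-titled arm both treated arrays (5.26 and 5.18) were below both untreated arrays (5.29 and 5.27). The nearest treated and untreated arrays there were at 5.259 and 5.266. In the no-titled arm both treated arrays (6.40 and 6.16) were above both untreated arrays (5.99 and 5.96). The difference of the responses was -0.36 with a 95% interval of -0.72 to 0.00. It did not pass (limma unadjusted p = 0.0508, adjusted p = 0.967), and 4.57% of all genes showed such an opposite separation.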

How the results depend on the processing

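The 10 called comparisons of Thbs1, Postn and Vcan stayed called with the same direction under each of the 16 alternatives run (adjusted p up to 0.0439). The ranges with 1 array left out or another setting used were -1.81 to -1.32 and -1.42 to -1.27 for the responses of Thbs1 in the plus-titled and no-titled arms, and 1.03 to 1.26 and 1.54 to 1.68 for those of Postn. Among 627 values of the 8 genes, 607 kept direction and side of the threshold, 9 were newly called and 11 changed sign, and 0 calls were lost.

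With trend and robust variance, 5 genes were called between the arms at 0 h in place of 3, with Fn1 (adjusted p = 0.0139) and Sparc (adjusted p = 0.0328) added. The other 78 counts stayed within 1.5 times. Newly called at 4 h was Fn1, with trend and robust variance (adjusted p = 0.00594), without the dimmest genes (0.0264), with the replicate block (0.0473) and without either untreated plus-titled array (0.0478). At 0 h without the dimmest genes it had adjusted p = 0.0459.

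The sign changes concerned estimates no larger than 0.22, none of them called. With 1 array left out, Tnc ranged from -0.10 to 0.29 in the plus-titled response and from -0.072 to 0.28 in the arm difference at 4 h. Sparc in the plus-titled response was -0.026 with median centring and ranged from -0.014 to 0.042 with 1 array left out. Thbs2 between the arms at 0 h was 0.054 with median centring, 0.0046 with cyclic loess, and -0.061 to 0.061 with 1 array left out. The difference of responses of Thbs1 ranged from -0.46 to 0.027 with 1 array left out. The cause was not tested.

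The replicate numbers are shared between groups, but replicate differences correlated across genes at only -0.02 to 0.13 between groups. With the replicate block, 2, 2, 3, 4 and 0 of the 8 genes were called in the plus-titled response, the no-titled response, the arm differences at 0 h and 4 h and the difference of responses, and no call was lost. Over all genes the calls ranged from 80 to 370, 134 to 461, 589 to 2594, 654 to 2609 and 0 to 11 in these comparisons, and scaling moved the median of all genes by at most 0.054. A fit with only the arrays compared could not differ for the difference of responses, which uses all 8.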
